A study of Arabidopsis thaliana with 15 samples.

Results

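A block of neighbouring genes on Arabidopsis chromosome 2, numbered AT2G07660 to AT2G07839, is described here across NAD-seq and mRNA-seq libraries. The block holds 151 of the 37361 genes in the count tables, and its members are the 76 genes with at least 30 counts summed over the 15 libraries. The other 75 block genes had fewer counts, and 36 of them had 0 counts in every library. Just inside the threshold were AT2G07724 with 30 counts and AT2G07685 with 31, and the highest sum just outside it was 28 counts.

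The nuclear genome of Arabidopsis carries, beside the centromere of chromosome 2, a large copied piece of the mitochondrial genome. The piece brings along copies of mitochondrial genes for the respiratory chain, ATP synthase, cytochrome c maturation, ribosomal proteins and tRNAs. The mitochondrial originals are transcribed by phage-type RNA polymerases, and their transcripts carry no m7G cap, whereas nuclear mRNAs receive an m7G cap. Where a nuclear copy and its original have the same sequence, short reads do not tell which of the copies was transcribed.

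RNA came from 12-day-old seedlings of the Col-0 strain and was selected for poly(A). NAD-seq puts biotin on RNA that begins with NAD+ and recovers it on streptavidin, by a copper-free click reaction (SPAAC) or a copper-catalysed one (CuAAC). The 5 groups of 3 libraries were mock mRNA, mock SPAAC, mock CuAAC, m7G-depleted SPAAC and m7G-depleted CuAAC, where m7G-depleted means that an antibody against the m7G cap had first removed capped RNA, and mock means the same handling with that antibody left out. Per the labels' protocols, the RNA was divided after this step into aliquots for mRNA-seq and for each chemistry. The groups share strain, age, poly(A) selection and library kit, and the captured groups also share E. coli tRNA as carrier and the streptavidin step. The mock mRNA group had no click reaction and no capture, and a library with click reaction but no tagging enzyme was not analysed here. The labels do not say that replicates came from separate plants, so p-values here cover only how far these samples spread, and that spread may be technical.

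Library totals ran from 3806556 to 19798778 counts, and mock mRNA and m7G-depleted CuAAC were the shallower groups. The counting cannot be taken as strand-specific: AT2G08665 and AT2G34420, annotated on opposite strands, had identical counts in 15 of 15 libraries. Of the members, 33 overlap another annotated gene, and their values are uncertain for that reason. The sources used here do not say how reads with several matching positions were counted.

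In the TAIR10.1 reference assembly, a stretch of chromosome 2 from base 3239038 to base 3509765 (270728 bases) was made up almost entirely of mitochondrial sequence. Alignments of at least 1000 bases to the mitochondrial genome (367808 bases) covered 99.6% of it, and the longest ran over 50638 bases at 99.897% identity. The exons of 73 of the 76 members aligned to the mitochondrial genome, at 99.6% identity or more. For 43 of the 73 the aligned exonic bases held no mismatch and no gap, for 20 they held 1, and the highest number of mismatches was 5. In 44 members no stretch of 50 exonic bases was unique in the assembly. In 43 members every such stretch also occurred in the mitochondrial genome, so reads of that length from them match both genomes. The 43 members without a difference held 35.8% of all 78172 counts of the members. The sources used here do not name the mitochondrial sequence the authors aligned to, and these values hold for the one in this assembly.

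The next stretches show how little separates the copies. They are printed 5′ to 3′ on the strand of the gene, in lower case, with the base that differs between the copies in capitals. The first is from AT2G07698, annotated as the alpha subunit of the ATP synthase F1 part, around the only base in which its exons differ from the mitochondrial genome. It lies outside the longest match of these exons, mitochondrial bases 66999 to 68604, which overlaps the gene atp1.
AT2G07698 on chromosome 2 (chr2:3361898-3361958, plus strand): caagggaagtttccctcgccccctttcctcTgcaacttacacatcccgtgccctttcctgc
mitochondrial copy (mitochondrial genome:69168-69228, minus strand): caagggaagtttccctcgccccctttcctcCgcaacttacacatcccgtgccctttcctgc

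A second pair surrounds the only differing base of AT2G07786, a pseudogene of nad1, whose product is a membrane subunit of respiratory complex I.
AT2G07786 on chromosome 2 (chr2:3399662-3399722, minus strand): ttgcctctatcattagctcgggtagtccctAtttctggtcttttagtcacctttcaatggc
mitochondrial copy (mitochondrial genome:234064-234124, plus strand): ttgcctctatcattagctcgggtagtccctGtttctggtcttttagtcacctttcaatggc

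A further pair surrounds the only differing base of AT2G07711, a pseudogene of nad5, another membrane subunit of complex I.
AT2G07711 on chromosome 2 (chr2:3397696-3397756, minus strand): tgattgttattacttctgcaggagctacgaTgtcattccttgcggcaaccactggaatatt
mitochondrial copy (mitochondrial genome:236030-236090, plus strand): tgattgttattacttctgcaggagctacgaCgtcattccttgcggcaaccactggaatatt

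The first 60 coding bases of AT2G07727, the copy of the cytochrome b gene cob, have no capital because the copies are identical there and over all 3243 exonic bases.
AT2G07727 on chromosome 2 (chr2:3450863-3450922, plus strand): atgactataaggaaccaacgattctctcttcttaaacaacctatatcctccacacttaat
mitochondrial copy (mitochondrial genome:182799-182858, minus strand): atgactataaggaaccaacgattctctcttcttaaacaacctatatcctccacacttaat

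The tRNA-Ser gene AT2G07754 is shown whole (88 bases) and is identical to the mitochondrial gene trnS(GCT).
AT2G07754 on chromosome 2 (chr2:3303735-3303822, minus strand): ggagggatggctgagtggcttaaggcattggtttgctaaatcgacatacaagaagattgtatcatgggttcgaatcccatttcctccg
mitochondrial copy (mitochondrial genome:41486-41573, plus strand): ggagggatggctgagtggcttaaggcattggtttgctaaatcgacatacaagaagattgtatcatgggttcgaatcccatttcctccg

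The annotation describes 44 members as protein-coding, 26 as pseudogenes, 5 as tRNA genes and 1 as a long non-coding RNA. By product name, 7 members are complex I genes (nad), 3 are named for cytochrome b, 2 belong to complex IV (cox), 4 to ATP synthase, 3 to ribosomal proteins and 3 to cytochrome c maturation, 2 are intron maturase pseudogenes, 5 are tRNA genes, and 44 have other or unknown products. The remaining 3, AT2G07680, AT2G07690 and AT2G07805, did not align to the mitochondrial genome. AT2G07680 and AT2G07690 lie just beyond the matching stretch, and AT2G07805 is annotated far from the block at chr2:9604211-9604488. They are described apart, but they stay in the members' totals, shares, medians and counts of calls.

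The filter on low counts kept 61 of the 76 members for testing. Of these 61, 21 exceeded the filter's level in each of the 5 groups. For 9, m7G-depleted SPAAC was the only group with all 3 libraries at that level. For 3 (AT2G07671, AT2G07674 and AT2G07765) the only such group was mock mRNA. High values in that 1 group may therefore be built into the choice of those 9 and of those 3. The filter took 3 libraries from any groups, so AT2G07669 and AT2G07681, among the 9, also passed without m7G-depleted SPAAC. The counts of called members below describe the tested members and are given beside the share of all 21456 tested genes called by the same rule (edgeR quasi-likelihood test, Benjamini-Hochberg adjusted p under 0.05 and a fold of at least 2). CPM, the usual depth-scaled count rate, was computed with TMM factors, and fold changes are log2 values ± SE.

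The members together took a small share of every library. Of all counts, they held 0.0285%, 0.0313% and 0.0289% in mock mRNA, 0.0203%, 0.0238% and 0.0244% in mock SPAAC, and 0.0138%, 0.0177% and 0.0150% in mock CuAAC. After m7G depletion they held 0.0890%, 0.0997% and 0.0905% in SPAAC and 0.0598%, 0.0704% and 0.0590% in CuAAC. In bulk seedling RNA, fewer cells of a type and less RNA per cell cannot be told apart. The shares of the 5 groups did not overlap: m7G-depleted SPAAC was highest, then m7G-depleted CuAAC, mock mRNA, mock SPAAC and mock CuAAC. The mean share with m7G depletion was 4.07 times the mock share in SPAAC and 4.07 times in CuAAC. SPAAC held 1.47 times the CuAAC share in mock RNA and 1.48 times in m7G-depleted RNA. Each of the 6 pairs of groups gave p = 0.1 in a two-sided exact permutation test (adjusted over the 6 pairs, 0.1), which is the smallest value that 3 against 3 libraries allow.

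The 162 ATMG genes, the mitochondrial gene set of the count tables, ordered differently. Their share was 2.56% ± 0.0992 (SD, n = 3) in mock mRNA. In SPAAC it was 0.114% ± 0.00928 with mock and 0.456% ± 0.0234 with m7G-depleted RNA, and in CuAAC 0.140% ± 0.00729 with mock and 0.714% ± 0.0759 with m7G-depleted RNA. For every 100 ATMG counts the members had 1.16 ± 0.0935 counts in mock mRNA (SD, n = 3). In SPAAC they had 20.0 ± 1.26 with mock and 20.4 ± 1.10 with m7G-depleted RNA, and in CuAAC 11.1 ± 1.19 with mock and 8.84 ± 0.381 with m7G-depleted RNA. The groups lay closer together without the 3 most abundant ATMG genes. In that count, a choice made after the values were seen, the members had 29.7 ± 1.23 counts per 100 ATMG counts in mock mRNA and group means between 37.9 and 42.8 in the captured groups.

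**Figure D1:**
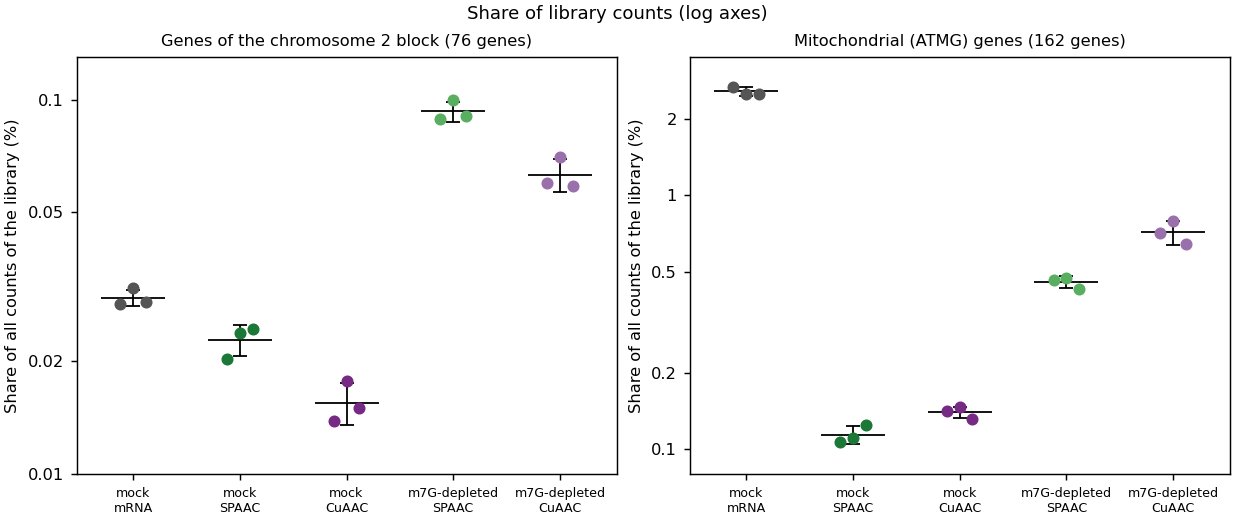
Share of all counts of a library (%, log axes) held by the 76 genes of the chromosome 2 block (left) and by the 162 ATMG genes (right). Each point is a library, and the bar and whiskers are mean ± SD (n = 3). On the left the m7G-depleted SPAAC libraries sit highest, between 0.0890% and 0.0997%, and on the right the mock mRNA libraries do, between 2.50% and 2.68%.

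Against mRNA-seq, more tested members were called lower than higher in mock capture. In mock SPAAC 27 of 61 were called lower and 3 higher, where 5.17% of all tested genes were called lower and 1.89% higher. In mock CuAAC 37 of 61 were called lower and 3 higher, against 11.2% and 5.09% of all tested genes. The 3 members with mock mRNA as the only group with all 3 libraries at the filter level are among those called lower in both. The median log2 fold change of the tested members was -1.15 for SPAAC and -2.05 for CuAAC, beside 0.07 and 0.01 over all tested genes. The tested ATMG genes had medians of -1.20 and -2.14, with 36 and 48 of 78 called lower and 0 and 2 higher. Scaling mattered here: with library totals the median of all genes was 0.80 for SPAAC and 0.62 for CuAAC, and the calls moved with it. In SPAAC 15 members were then called lower and 12 higher, where 1.66% and 32.1% of all tested genes were. In CuAAC 32 were called lower and 7 higher, where 4.72% and 26.1% of all tested genes were. The median of the members stayed negative with library totals, at -0.42 for SPAAC and -1.44 for CuAAC. With the 2 groups of each comparison fitted alone, 31 members were tested in CuAAC. Of these, 19 were called lower, against 11% of the genes tested there. For the 21 members past the filter level in each group, 8 were called lower and 2 higher in SPAAC, and 10 lower and 3 higher in CuAAC.

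With m7G depletion the members were higher in both chemistries. In SPAAC 55 of 61 tested members were called higher, against 7.37% of all tested genes, and 0 were called lower, against 9.66%. The 55 include the 9 members for which m7G-depleted SPAAC was the only group with all 3 libraries at the filter level. In CuAAC 47 of 61 were called higher, against 6.32%, and 0 lower, against 8.24%. In edgeR 0 members had an unadjusted p under 0.05 with a lower value in either chemistry, and DESeq2 called 0 members lower in both. The median log2 fold change was 2.02 in SPAAC and 2.06 in CuAAC. The medians were 2.08 and 2.12 for the tested ATMG genes, -0.01 and 0.01 over all tested genes, and 2.00 and 1.94 for 23 tested genes with neighbouring numbers (AT2G07500 to AT2G07659 and AT2G07840 to AT2G07999), some of which also lie inside the matching stretch by position. Of the 21 members past the filter level in each group, 20 were called higher in SPAAC and 20 in CuAAC. With no filter 62 and 54 of all 76 were called higher, against 5.53% and 4.63% of all genes tested then. Of those 21, the gene not called in either chemistry was AT2G07690, which did not align to the mitochondrial genome. Among all 61 tested members, AT2G07671, AT2G07765, AT2G07805 and AT2G07825 were also called in neither chemistry. Of these, all but AT2G07805 aligned to the mitochondrial genome.

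The difference between the depletion effects of the chemistries was tested by an interaction term. In edgeR 0 of 61 members were called in either direction, beside 0% of all tested genes called in the positive direction and 0.00466% in the negative one. An unadjusted p under 0.05 was found for 2 members, and DESeq2 called 0. These counts do not show that the effects were equal.

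Between the chemistries, called members were higher in SPAAC. In mock RNA 13 of 61 were called higher, against 6.47% of all tested genes, and 0 lower, against 0.508%. In m7G-depleted RNA 17 were called higher, against 7.3%, and 0 lower, against 0.895%. Of these 17, 7 had m7G-depleted SPAAC as the only group with all 3 libraries at the filter level. Some of these 7 calls may therefore be built in. Of the 21 members past the filter level in each group, 4 were called higher in SPAAC in mock RNA and 4 in m7G-depleted RNA. In edgeR an unadjusted p under 0.05 with a lower value was found for 3 members in mock and 6 in m7G-depleted RNA, and DESeq2 called 0 and 2 members lower. The medians were 0.68 and 0.60 for the members, 0.47 and 0.49 for the ATMG genes, and -0.01 in both over all tested genes. With the mock groups fitted alone 34 members were tested, and 7 were called higher in SPAAC, against 6.21% of the genes tested there. With the replicate block 1 member, AT2G07674, was called lower in m7G-depleted SPAAC (log2 -1.59, adjusted p = 0.0370). Without m7G-depleted SPAAC replicate 3 or without m7G-depleted CuAAC replicate 2 the count was also 1, for a member other than AT2G07674.

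**Figure D2:**
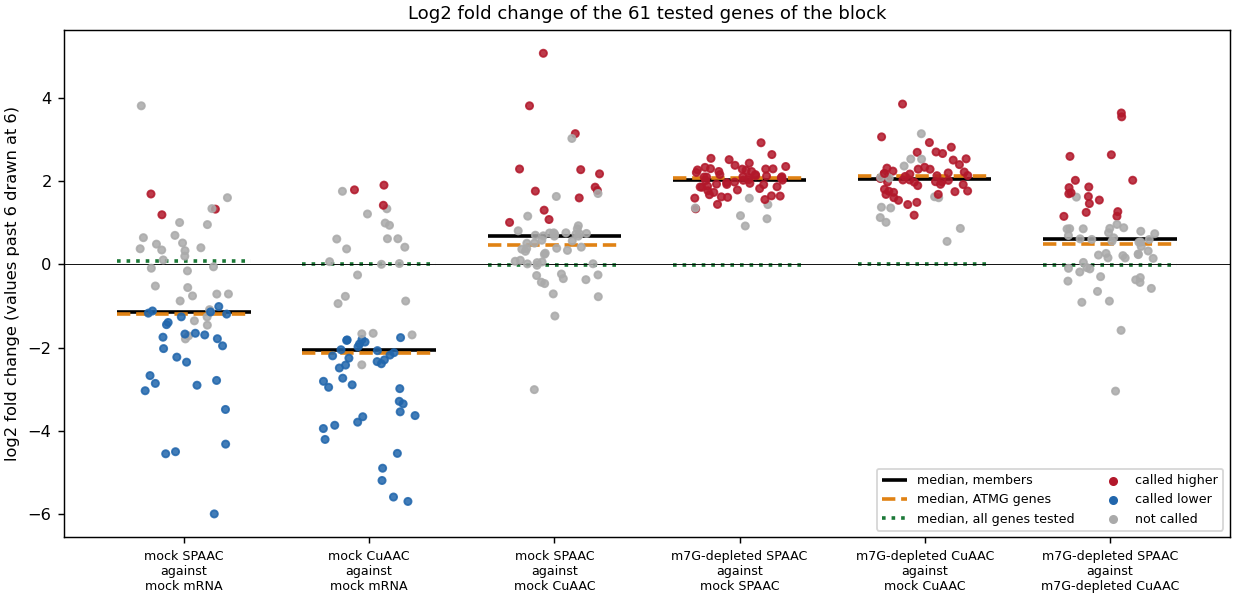
Log2 fold change of the 61 tested genes of the block in 6 comparisons (vertical axis). Each point is a gene, red where called higher, blue where called lower and grey where not called, and lines give the medians of the members, of the ATMG genes and of all tested genes. The points lie around 2 in both comparisons of m7G-depleted with mock capture, and mostly below 0 in both comparisons with mRNA-seq. Genes at 0 counts in a group have fitted values that depend on the prior count.

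ATP synthase makes ATP from the proton gradient of the inner membrane. AT2G07698 was the most abundant member, and with AT2G07715, AT2G07774 and 9 others it made up the 12 most abundant members, which held 74.0% of the members' counts. AT2G07698 had 99.8, 106 and 103 CPM in the mock mRNA libraries, 19.6, 27.1 and 28.9 CPM in the mock SPAAC libraries, 18.8, 28.4 and 23.3 CPM in the mock CuAAC libraries, 113, 136 and 121 CPM in the m7G-depleted SPAAC libraries and 91.2, 130.3 and 99.4 CPM in the m7G-depleted CuAAC libraries. The mRNA and m7G-depleted libraries lay high, from 91.2 to 136 CPM, the mock captured libraries lay low, and the chemistries overlapped. It fell in mock SPAAC by 2.03 ± 0.17, adjusted p = 1.92e-07, and in mock CuAAC by 2.12 ± 0.17, adjusted p = 6.78e-08. With m7G depletion it rose by 2.29 ± 0.17, adjusted p = 1.47e-08, in SPAAC and by 2.18 ± 0.17, adjusted p = 5.28e-08, in CuAAC.

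AT2G07671, a copy of atp9 for the membrane ring of ATP synthase, was found almost entirely in mRNA-seq. Its counts were 27, 6 and 7 in the mock mRNA libraries, 0, 0 and 0 in the mock SPAAC libraries, 0, 2 and 1 in the mock CuAAC libraries, 1, 0 and 0 in the m7G-depleted SPAAC libraries and 2, 2 and 1 in the m7G-depleted CuAAC libraries. Mock mRNA replicate 1 held 27 of the 40 mRNA counts, and the other libraries were at or near 0. It passed the filter through mock mRNA alone, so its lower level elsewhere was built in and is given as a description. The level in mock SPAAC was at least 63.3-fold lower than in mock mRNA, computed against a floor of 3 counts over the group. In mock CuAAC it was lower by a ratio of 43.8, with a 95% counting interval from 13.9 to 221. The interval covers counting error and no replicate spread.

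Complex I passes electrons from NADH into the respiratory chain. AT2G07711, the nad5 pseudogene, had 41.3, 37.8 and 45.5 CPM in the mock mRNA libraries, 15.8, 18.3 and 20.4 CPM in the mock SPAAC libraries, 4.32, 6.50 and 5.19 CPM in the mock CuAAC libraries, 79.4, 82.4 and 81.3 CPM in the m7G-depleted SPAAC libraries and 23.7, 28.6 and 21.7 CPM in the m7G-depleted CuAAC libraries. Each of the 6 pairs of groups compared was separate, with m7G-depleted SPAAC highest and mock CuAAC lowest. It fell against mRNA-seq by 1.20 ± 0.13, adjusted p = 3.47e-07, in SPAAC and by 2.96 ± 0.15, adjusted p = 2.19e-12, in CuAAC. It was higher in SPAAC than in CuAAC by 1.76 ± 0.14, adjusted p = 7.76e-09, in mock RNA and by 1.72 ± 0.13, adjusted p = 2.38e-09, in m7G-depleted RNA. With library totals the fall in SPAAC was 0.47 and was not called. With depletion it rose by 2.16 ± 0.12 in SPAAC and 2.20 ± 0.15 in CuAAC.

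AT2G07709, a pseudogene of nad7 for a subunit of the peripheral arm of complex I, had 13.5, 7.97 and 10.9 CPM in the mock mRNA libraries, 6.83, 6.28 and 7.33 CPM in the mock SPAAC libraries, 1.16, 1.20 and 1.97 CPM in the mock CuAAC libraries, 26.4, 33.3 and 27.0 CPM in the m7G-depleted SPAAC libraries and 6.02, 4.59 and 3.71 CPM in the m7G-depleted CuAAC libraries. The mock CuAAC and m7G-depleted CuAAC libraries lay below the SPAAC libraries of the same RNA, without overlap. SPAAC exceeded CuAAC by 2.27 ± 0.22, adjusted p = 1.12e-07, in mock RNA and by 2.59 ± 0.19, adjusted p = 2.62e-09, in m7G-depleted RNA. It overlaps AT2G07641 on the opposite strand.

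AT2G07786, the nad1 pseudogene with the stretch printed above, had 19.1, 18.7 and 20.6 CPM in the mock mRNA libraries, 16.0, 17.1 and 21.7 CPM in the mock SPAAC libraries, 9.41, 13.9 and 10.8 CPM in the mock CuAAC libraries, 76.1, 81.5 and 78.0 CPM in the m7G-depleted SPAAC libraries and 48.8, 58.0 and 49.0 CPM in the m7G-depleted CuAAC libraries. Mock mRNA and mock SPAAC overlapped, mock CuAAC lay below them, and both m7G-depleted groups lay above. It rose with m7G depletion by 2.10 ± 0.13, adjusted p = 3.73e-11, in SPAAC and by 2.18 ± 0.14, adjusted p = 1.26e-10, in CuAAC. Its differences between captured and mRNA libraries, -0.09 ± 0.15 and -0.77 ± 0.15, were under the fold threshold, as were those between the chemistries, 0.68 ± 0.13 and 0.60 ± 0.12.

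AT2G07785, a second nad1 copy, was rarer, at 1.10 ± 0.953 CPM in mock mRNA, 0.452 ± 0.107 CPM and 2.67 ± 0.434 CPM in mock and m7G-depleted SPAAC, and 0.0831 ± 0.0721 CPM and 0.436 ± 0.317 CPM in mock and m7G-depleted CuAAC (SD, n = 3). Its only group with all 3 libraries at the filter level was m7G-depleted SPAAC, so its rise there may be built in. With m7G depletion its log2 difference in CuAAC was 2.09 ± 0.92, adjusted p = 0.0694, which was not called, and 2.06, adjusted p = 0.0448, with the replicate block, which was. Likewise its difference in mock SPAAC against mRNA-seq was -1.46 ± 0.59, adjusted p = 0.0652, and -1.46, adjusted p = 0.0288, with the replicate block. Over all 7 complex I members, 4 were called lower and 0 higher in mock SPAAC against mRNA-seq, 6 lower and 0 higher in mock CuAAC, and 7 and 5 were called higher with m7G depletion in SPAAC and CuAAC. Between the chemistries 4 of the 7 were called higher in SPAAC in mock RNA and 4 in m7G-depleted RNA, both including AT2G07785. Its call in mock RNA rested on 4 counts in all of mock CuAAC. It was lost without mock SPAAC replicate 3 (1.98) and without mock CuAAC replicate 1 (2.45), 2 (2.41) or 3 (1.73). The log2 differences of all 7 were positive, from 0.24 in mock and from 0.60 in m7G-depleted RNA. The shares of all tested genes given above for each comparison apply to these counts.

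Complex III passes electrons on to cytochrome c, and its cytochrome b subunit is encoded by cob. AT2G07727, the exact cob copy, had 40.1, 52.7 and 36.7 CPM in the mock mRNA libraries, 13.2, 14.6 and 12.7 CPM in the mock SPAAC libraries, 2.45, 2.83 and 3.04 CPM in the mock CuAAC libraries, 49.0, 58.3 and 49.1 CPM in the m7G-depleted SPAAC libraries and 9.71, 18.2 and 11.0 CPM in the m7G-depleted CuAAC libraries. Mock mRNA and m7G-depleted SPAAC lay high and overlapped, mock SPAAC and m7G-depleted CuAAC lay in between, and mock CuAAC lay lowest without overlap. It fell against mRNA-seq by 1.66 ± 0.17, adjusted p = 3.25e-07, in SPAAC and by 3.95 ± 0.21, adjusted p = 1.85e-11, in CuAAC. SPAAC exceeded CuAAC by 2.29 ± 0.20, adjusted p = 6.51e-08, in mock RNA and by 2.02 ± 0.17, adjusted p = 4.12e-08, in m7G-depleted RNA. With depletion it rose by 1.95 ± 0.16 in SPAAC and 2.22 ± 0.22 in CuAAC. With library totals the fall in SPAAC was 0.95 and was not called.

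Complex IV reduces oxygen, and the 2 members placed there by product name were called in opposite directions against mRNA-seq. AT2G07687, an exact copy of the cox3 region, had 24.3, 12.1 and 26.8 CPM in the mock mRNA libraries, 0.743, 1.28 and 0.676 CPM in the mock SPAAC libraries, 0.773, 1.45 and 1.25 CPM in the mock CuAAC libraries, 3.07, 3.35 and 3.05 CPM in the m7G-depleted SPAAC libraries and 2.60, 4.13 and 3.44 CPM in the m7G-depleted CuAAC libraries. The mRNA libraries lay far above all captured ones, and mock mRNA replicate 2 was the lowest of the 3. It fell by 4.55 ± 0.30, adjusted p = 1.70e-10, in mock SPAAC and by 4.21 ± 0.30, adjusted p = 3.96e-10, in mock CuAAC, and with depletion it rose by 1.79 ± 0.31, adjusted p = 5.32e-05, in SPAAC and by 1.54 ± 0.35, adjusted p = 0.00113, in CuAAC.

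AT2G07695, whose match in the mitochondrial genome overlapped no named gene, is annotated as a cox2-like protein with a transmembrane domain. It went the other way. It had 2.80, 2.77 and 2.37 CPM in the mock mRNA libraries, 5.43, 6.23 and 6.55 CPM in the mock SPAAC libraries, 8.06, 11.1 and 10.7 CPM in the mock CuAAC libraries, 24.5, 27.4 and 27.4 CPM in the m7G-depleted SPAAC libraries and 41.6, 47.7 and 35.5 CPM in the m7G-depleted CuAAC libraries. Each of the 6 pairs of groups compared was separate, with mock mRNA lowest and m7G-depleted CuAAC highest. It rose against mRNA-seq by 1.19 ± 0.23, adjusted p = 3.39e-04, in SPAAC and by 1.90 ± 0.22, adjusted p = 3.77e-07, in CuAAC. It was lower in SPAAC than in CuAAC by less than the fold threshold, at -0.71 ± 0.14 in mock RNA and -0.65 ± 0.13 in m7G-depleted RNA.

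**Figure D3:**
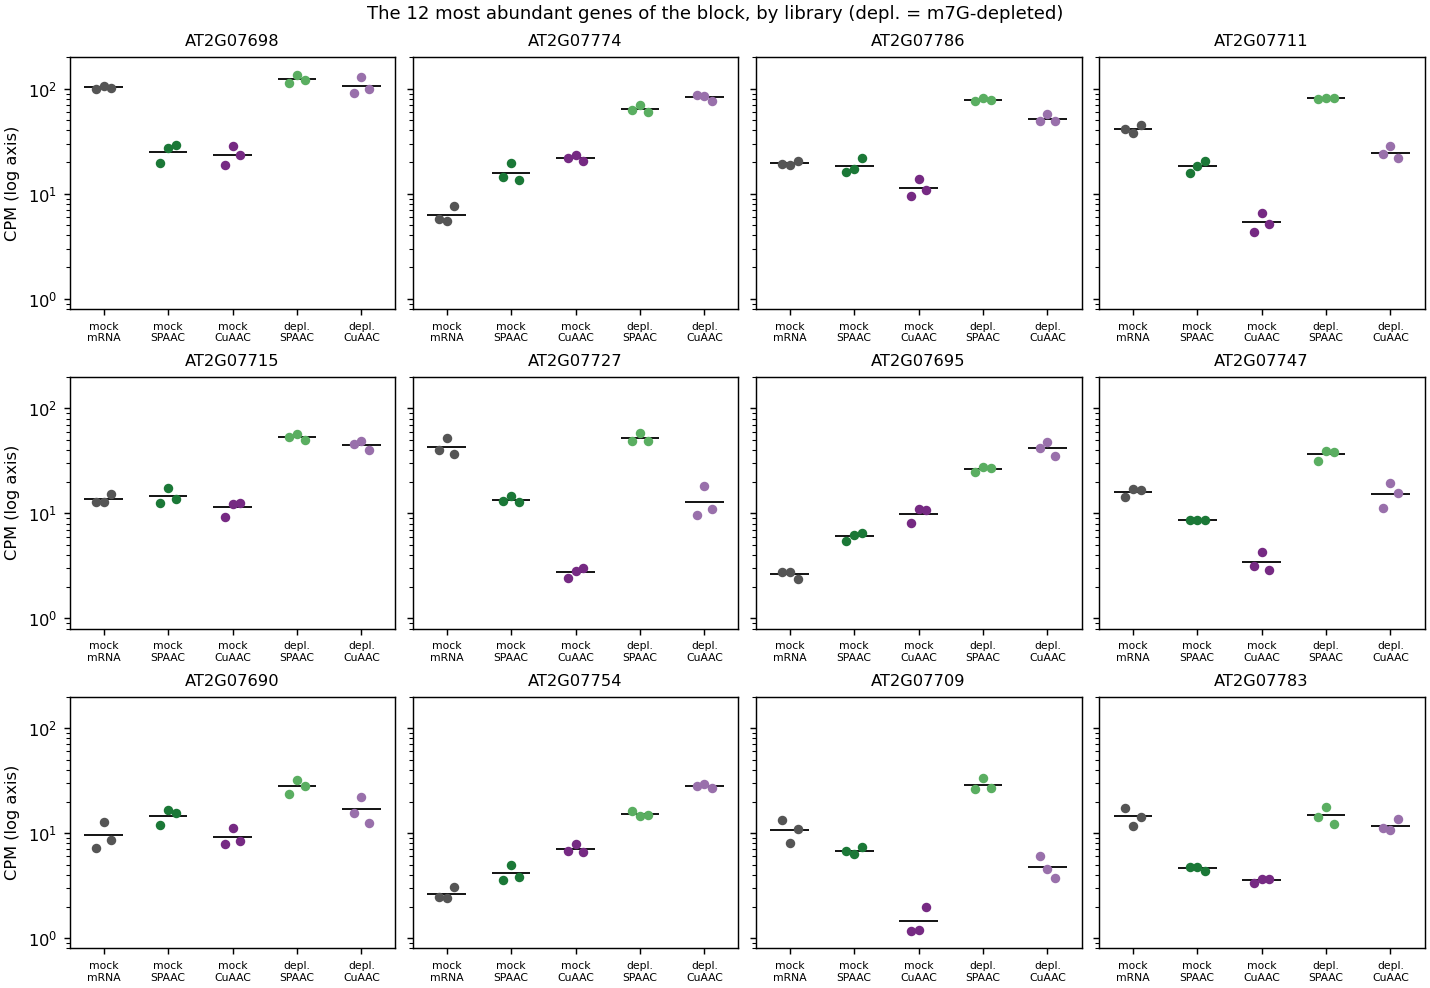
CPM (log axis) of the 12 most abundant genes of the block in each library, with 1 panel per gene. Points are libraries in 5 groups of 3 and bars are group means. AT2G07695, AT2G07754 and AT2G07774 are lowest in mock mRNA, while AT2G07711, AT2G07727 and AT2G07709 are lowest in mock CuAAC.

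Cytochrome c maturation proteins attach heme to cytochrome c. AT2G07783, a pseudogene of the ccmFN1 region, had 17.4, 11.8 and 14.2 CPM in the mock mRNA libraries, 4.78, 4.76 and 4.32 CPM in the mock SPAAC libraries, 3.35, 3.67 and 3.67 CPM in the mock CuAAC libraries, 14.1, 17.9 and 12.3 CPM in the m7G-depleted SPAAC libraries and 11.2, 10.7 and 13.5 CPM in the m7G-depleted CuAAC libraries. Mock captured libraries lay below the mRNA and m7G-depleted ones. It fell against mRNA-seq by 1.68 ± 0.18, adjusted p = 2.73e-07, in SPAAC and by 2.05 ± 0.19, adjusted p = 1.79e-08, in CuAAC, and rose with depletion by 1.67 ± 0.16 and 1.73 ± 0.18. The fall in SPAAC was 0.95 and not called with library totals. All 3 tested members of this role were called lower in mock CuAAC against mRNA-seq and 2 in mock SPAAC. Of all tested genes, 11.2% and 5.17% were.

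Intron maturase helps splice introns of mitochondrial transcripts, and in the mitochondrial genome its gene matR lies within an intron of nad1. AT2G07747, a maturase pseudogene in that region, had 14.5, 17.0 and 16.8 CPM in the mock mRNA libraries, 8.64, 8.61 and 8.68 CPM in the mock SPAAC libraries, 3.16, 4.34 and 2.87 CPM in the mock CuAAC libraries, 31.6, 39.7 and 38.3 CPM in the m7G-depleted SPAAC libraries and 11.2, 19.6 and 15.5 CPM in the m7G-depleted CuAAC libraries. Each pair of groups compared was separate, and mock CuAAC was lowest. SPAAC exceeded CuAAC by 1.30 ± 0.18, adjusted p = 9.90e-06, in mock RNA and by 1.25 ± 0.16, adjusted p = 2.24e-06, in m7G-depleted RNA. Both maturase members were called higher in SPAAC in both kinds of RNA, against 6.47% (mock) and 7.3% (m7G-depleted) of all tested genes. Both rose with depletion in both chemistries, against 7.37% called higher in SPAAC and 6.32% in CuAAC. AT2G07747 overlaps AT2G07655 on the opposite strand, so its values are uncertain.

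AT2G07715 aligned to the mitochondrial gene rpl2, which encodes a protein of the large ribosomal subunit. It overlaps AT2G00480 on the opposite strand. It had 12.8, 12.8 and 15.2 CPM in the mock mRNA libraries, 12.6, 17.4 and 13.8 CPM in the mock SPAAC libraries, 9.28, 12.3 and 12.6 CPM in the mock CuAAC libraries, 52.9, 56.7 and 49.8 CPM in the m7G-depleted SPAAC libraries and 45.7, 48.8 and 39.9 CPM in the m7G-depleted CuAAC libraries. Mock mRNA and mock SPAAC overlapped, and both m7G-depleted groups lay above all the others. It rose with depletion by 1.86 ± 0.13, adjusted p = 2.10e-10, in SPAAC and by 1.97 ± 0.14, adjusted p = 4.64e-10, in CuAAC, and no other comparison passed the fold threshold. AT2G07725, a copy of rpl5, reached 4.21 ± 0.559 CPM in m7G-depleted SPAAC and 1.03 ± 0.203 CPM in m7G-depleted CuAAC (SD, n = 3), a difference of 2.02 ± 0.38, adjusted p = 1.96e-04. Its fall in mock SPAAC against mRNA-seq, 1.17 ± 0.44, adjusted p = 0.0438, was not called with library totals (-0.46), with no filter (-1.14) or with these groups fitted alone (-1.24). It was also not called without mock mRNA replicate 1 (-1.34), mock mRNA replicate 2 (-0.76), mock SPAAC replicate 1 (-0.87) or mock SPAAC replicate 2 (-1.15), and the libraries of these groups overlapped.

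tRNAs carry amino acids to the ribosome, and 5 of the 21 annotated tRNA genes of the block are members. AT2G07754, the tRNA-Ser gene, had 2.47, 2.43 and 3.08 CPM in the mock mRNA libraries, 3.58, 4.99 and 3.85 CPM in the mock SPAAC libraries, 6.70, 7.95 and 6.63 CPM in the mock CuAAC libraries, 16.4, 14.6 and 14.9 CPM in the m7G-depleted SPAAC libraries and 27.9, 29.7 and 27.1 CPM in the m7G-depleted CuAAC libraries. Each pair of groups compared was separate, with mock mRNA lowest and m7G-depleted CuAAC highest. It rose in mock CuAAC against mRNA-seq by 1.42 ± 0.22, adjusted p = 1.38e-05, and with depletion by 1.88 ± 0.14 in SPAAC and 1.99 ± 0.14 in CuAAC. In mock SPAAC against mRNA-seq the difference was 0.64 ± 0.22, adjusted p = 0.0328, under the fold threshold, and with library totals it was 1.37 and called.

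AT2G07774, an uncharacterized gene on the same strand, shares 57 exonic bases with AT2G07754, and reads over the overlap cannot be told apart. It had 5.76, 5.55 and 7.58 CPM in the mock mRNA libraries, 14.3, 19.5 and 13.6 CPM in the mock SPAAC libraries, 21.7, 23.2 and 20.5 CPM in the mock CuAAC libraries, 62.0, 70.1 and 59.6 CPM in the m7G-depleted SPAAC libraries and 86.3, 85.8 and 76.3 CPM in the m7G-depleted CuAAC libraries. Mock mRNA was lowest, and the CuAAC libraries lay above the SPAAC libraries of the same RNA. It rose against mRNA-seq by 1.33 ± 0.17, adjusted p = 3.27e-06, in SPAAC and by 1.79 ± 0.17, adjusted p = 2.24e-08, in CuAAC, and with depletion by 2.01 ± 0.12 and 1.92 ± 0.12. The members called higher in mock capture than in mRNA-seq were AT2G07774 and AT2G07695 in both chemistries, AT2G07754 in CuAAC and AT2G07664 in SPAAC.

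The remaining named members have no product given in the annotation. AT2G07664 is an exact copy with 323 bases. Its counts were 1, 4 and 1 in the mock mRNA libraries, 29, 38 and 28 in the mock SPAAC libraries, 16, 15 and 8 in the mock CuAAC libraries, 84, 81 and 72 in the m7G-depleted SPAAC libraries and 23, 21 and 40 in the m7G-depleted CuAAC libraries. The m7G-depleted libraries lay highest, and mock mRNA replicate 2 with 4 counts overlapped mock SPAAC in CPM. It rose in mock SPAAC against mRNA-seq by 1.69 ± 0.55, adjusted p = 0.0223, and was not called with these groups fitted alone (1.62), without mock mRNA replicate 1 (1.07), without mock mRNA replicate 3 (1.38) or without mock SPAAC replicate 2 (1.58). AT2G07662 had 16.5 ± 1.25 CPM in mock mRNA, 0.830 ± 0.394 CPM in mock SPAAC and 0.507 ± 0.362 CPM in mock CuAAC (SD, n = 3). It fell against mRNA-seq by 4.32 ± 0.34, adjusted p = 2.83e-09, in SPAAC and by 4.90 ± 0.38, adjusted p = 1.13e-09, in CuAAC. AT2G07674 had 2.38 ± 1.63 CPM in mock mRNA, where replicate 3 held 18 of 31 counts, and 6 and 4 counts in all of mock SPAAC and mock CuAAC. It too passed the filter through mock mRNA alone, so its differences from mRNA-seq, -4.50 ± 0.72 in SPAAC and -4.54 ± 0.78 in CuAAC, were built in.

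Among the largest rises with depletion were those of AT2G07669 and AT2G07693 in SPAAC and of AT2G07826, AT2G07728 and AT2G07798 in CuAAC. AT2G07693 went from 0.430 ± 0.159 CPM to 2.51 ± 0.277 CPM in SPAAC (SD, n = 3), 2.52 ± 0.37, adjusted p = 7.77e-06. AT2G07826 went from 0.266 ± 0.0890 CPM to 2.01 ± 0.656 CPM in CuAAC (SD, n = 3), 2.93 ± 0.47, adjusted p = 3.12e-05, and AT2G07728 from 0.265 ± 0.307 CPM to 1.98 ± 0.471 CPM, 2.7 ± 0.54, adjusted p = 3.23e-04. AT2G07798, better covered, went from 0.819 ± 0.0881 CPM to 4.73 ± 1.38 CPM, 2.54 ± 0.30, adjusted p = 5.47e-07. AT2G07669 reached the filter level in all 3 libraries of m7G-depleted SPAAC only, but also in some libraries of mock mRNA and m7G-depleted CuAAC. Its rise in SPAAC was 2.64 ± 0.47. In CuAAC its difference was 1.60 ± 0.72, adjusted p = 0.0749, and 1.65, adjusted p = 0.0363, with the replicate block.

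**Figure D4:**
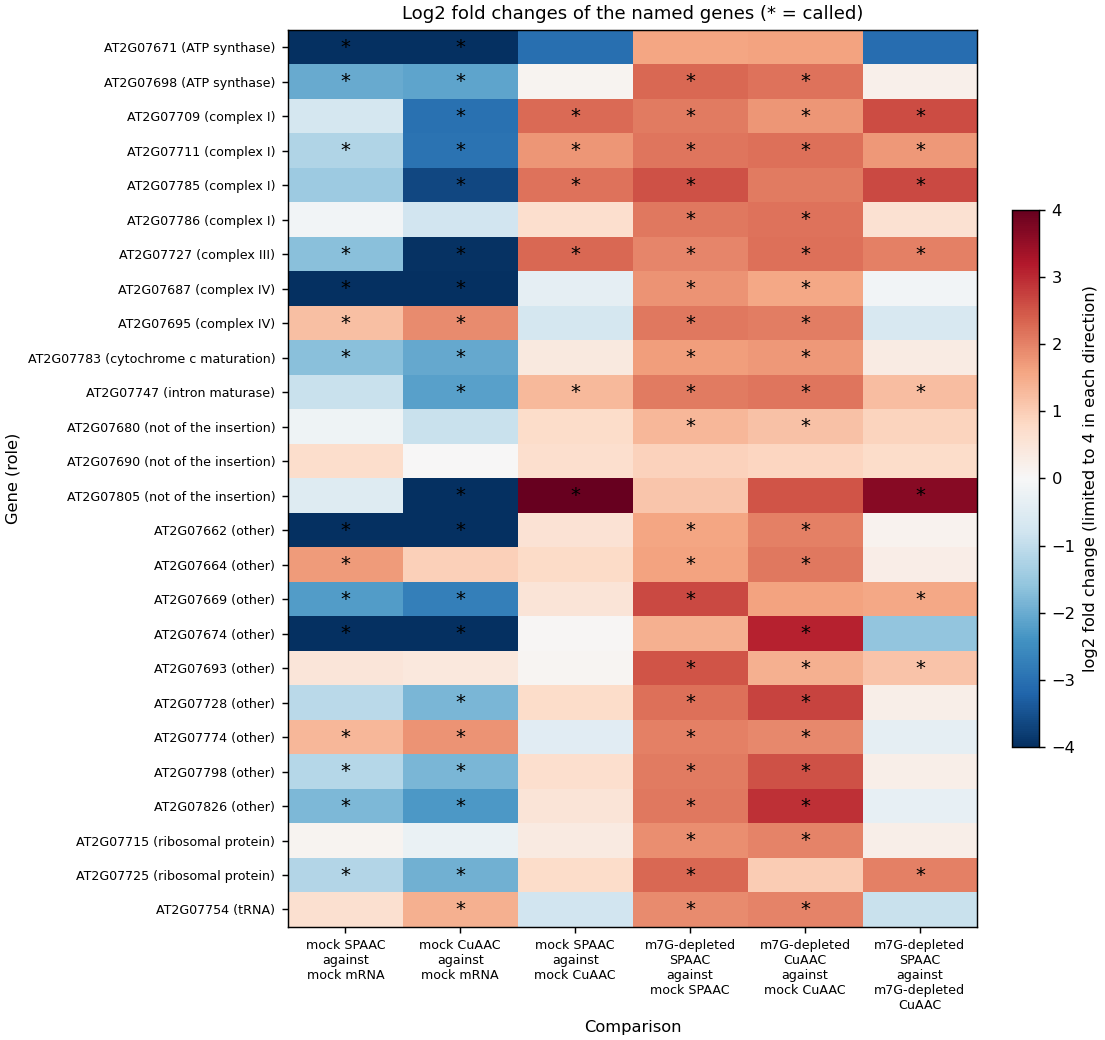
Log2 fold changes of the 26 named genes of the block (rows, with role) in 6 comparisons (columns), on a colour scale limited to 4 in each direction. A star marks a called gene. Both columns of m7G-depleted against mock capture are red in each row, with AT2G07690, AT2G07671 and AT2G07805 among the cells without a star.

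The 3 members outside the matching sequence stand apart by position. AT2G07690 is MCM5, a subunit of the helicase that unwinds DNA in replication, and it had 7.24, 12.8 and 8.52 CPM in the mock mRNA libraries, 12.0, 16.7 and 15.4 CPM in the mock SPAAC libraries, 7.80, 11.3 and 8.33 CPM in the mock CuAAC libraries, 23.5, 32.2 and 28.0 CPM in the m7G-depleted SPAAC libraries and 15.6, 22.3 and 12.6 CPM in the m7G-depleted CuAAC libraries. Its 3 mock mRNA libraries overlapped the mock captured ones, and the m7G-depleted libraries lay above the mock libraries of the same chemistry. Depletion gave 0.92 ± 0.20, adjusted p = 7.54e-04, in SPAAC and 0.86 ± 0.22, adjusted p = 0.00453, in CuAAC, under the fold threshold of 1 on the log2 scale. It passed the threshold without mock SPAAC replicate 2 (1.02) or m7G-depleted SPAAC replicate 1 (1.03) in SPAAC, and without mock CuAAC replicate 2 (1.07) or m7G-depleted CuAAC replicate 3 (1.03) in CuAAC. With library totals it was also called higher in mock SPAAC than in mock mRNA, at 1.41. AT2G07680 is ABCC13, a membrane transporter of the ABC family, at 5.43 ± 0.785 CPM in mock SPAAC and 13.7 ± 1.65 CPM in m7G-depleted SPAAC (SD, n = 3). It rose with depletion by 1.33 ± 0.18, adjusted p = 2.12e-06, in SPAAC and by 1.18 ± 0.22, adjusted p = 1.34e-04, in CuAAC, and it overlaps 2 genes on the opposite strand. No test of these genes against the other members was made.

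AT2G07805, the non-coding RNA gene annotated away from the block, lies across from AT2G22610 on the opposite strand. Its counts were 0, 1 and 5 in the mock mRNA libraries, 6, 7 and 7 in the mock SPAAC libraries, 0, 0 and 0 in the mock CuAAC libraries, 6, 16 and 13 in the m7G-depleted SPAAC libraries and 0, 1 and 0 in the m7G-depleted CuAAC libraries. The CuAAC libraries held 1 count in all, and the SPAAC libraries 55. In mock RNA it was at least 4.61-fold higher in SPAAC than in CuAAC, against the floor of 3 counts over the group, and in m7G-depleted RNA the ratio was 14.7, with a 95% counting interval from 2.48 to 599.

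The annotation names an ATMG partner for 33 members. In 20 of these pairs the member had more counts per kb than its partner. The partner had fewer than 30 counts over the 15 libraries in 14 pairs, and 0 in 3 of those. Members were compared with the mitochondrial genome and not with their ATMG partners, so whether the split followed sequence differences was not tested. For the cob copy AT2G07727, identical to the mitochondrial sequence of this assembly, the count tables held 4428 counts against 3 for ATMG00220. The member is 3243 bases long and ATMG00220 is 1182, so these counts do not cover the same stretch. For the atp1 copy AT2G07698 they held 12456 counts against 331 for ATMG01190, and per kb the member had 23.5 times as many. The member's share of the pair's counts ranged from 96.6% to 97.7% over the 5 groups. For the identical cox3 copy AT2G07687 there were 635 counts against 115 for ATMG00730.

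Other pairs divided more evenly or favoured the ATMG gene. AT2G07715 had 5231 counts and ATMG00560 had 5670, and the member's share of the pair was between 45.6% and 55.6% in each group. AT2G07695 had 3068 counts and ATMG01280 had 1359, equal to 1.04 times as many per kb. AT2G07798 had 536 counts against 773 for ATMG01220, AT2G07785 had 194 against 538 for ATMG01275, and AT2G07725 had 335 against 321 for ATMG00210. AT2G07826 had 176 against 99 for ATMG01210, and AT2G07674 had 73 against 11 for ATMG01010. For AT2G07671 there were 49 counts against 41 for ATMG01080, and for AT2G07664 there were 461 against 2 for ATMG01040. How much of a pair's signal came from either genome cannot be told apart.

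Both genes were tested in 13 pairs. With depletion in SPAAC both were called higher in 13 of 13. In CuAAC both were called higher in 8, the member alone in 1 and the partner alone in 4. Of all tested genes, 7.37% were called higher in SPAAC and 6.32% in CuAAC. For the members AT2G07768 and AT2G07785, m7G-depleted SPAAC was the only group with all 3 libraries at the filter level. Their calls in SPAAC may therefore be built in. Values follow for pairs of named genes. With depletion ATMG01190 changed by 1.79 ± 0.32 in SPAAC and 1.80 ± 0.38 in CuAAC, beside 2.29 ± 0.17 and 2.18 ± 0.17 for AT2G07698. ATMG00560 changed by 2.08 ± 0.18 and 2.28 ± 0.20, beside 1.86 ± 0.13 and 1.97 ± 0.14 for AT2G07715. ATMG01280 changed by 2.41 ± 0.21 and 1.73 ± 0.22, beside 2.12 ± 0.14 and 2.06 ± 0.14 for AT2G07695. ATMG01220 changed by 1.96 ± 0.20 and 1.79 ± 0.22, beside 2.07 ± 0.24 and 2.54 ± 0.30 for AT2G07798. Each of these changes was called. For AT2G07826 and ATMG01210 the signs differed in CuAAC. ATMG01210 had 3, 3 and 1 counts in mock CuAAC and 1, 1 and 0 in m7G-depleted CuAAC, a log2 difference of -0.72 ± 1.11, adjusted p = 0.620, beside 2.93 ± 0.47 for AT2G07826. In SPAAC the pair had 2.00 ± 0.48 and 2.10 ± 0.39, both called. The difference between the genes of a pair was not tested. For rpl5, ATMG00210 had 0 counts in the 3 mock CuAAC libraries and 5.14 ± 0.187 CPM in m7G-depleted SPAAC (SD, n = 3), against 0.236 ± 0.0882 CPM in m7G-depleted CuAAC, and SPAAC exceeded CuAAC there by 4.40 ± 0.50, adjusted p = 1.05e-06.

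**Figure D5:**
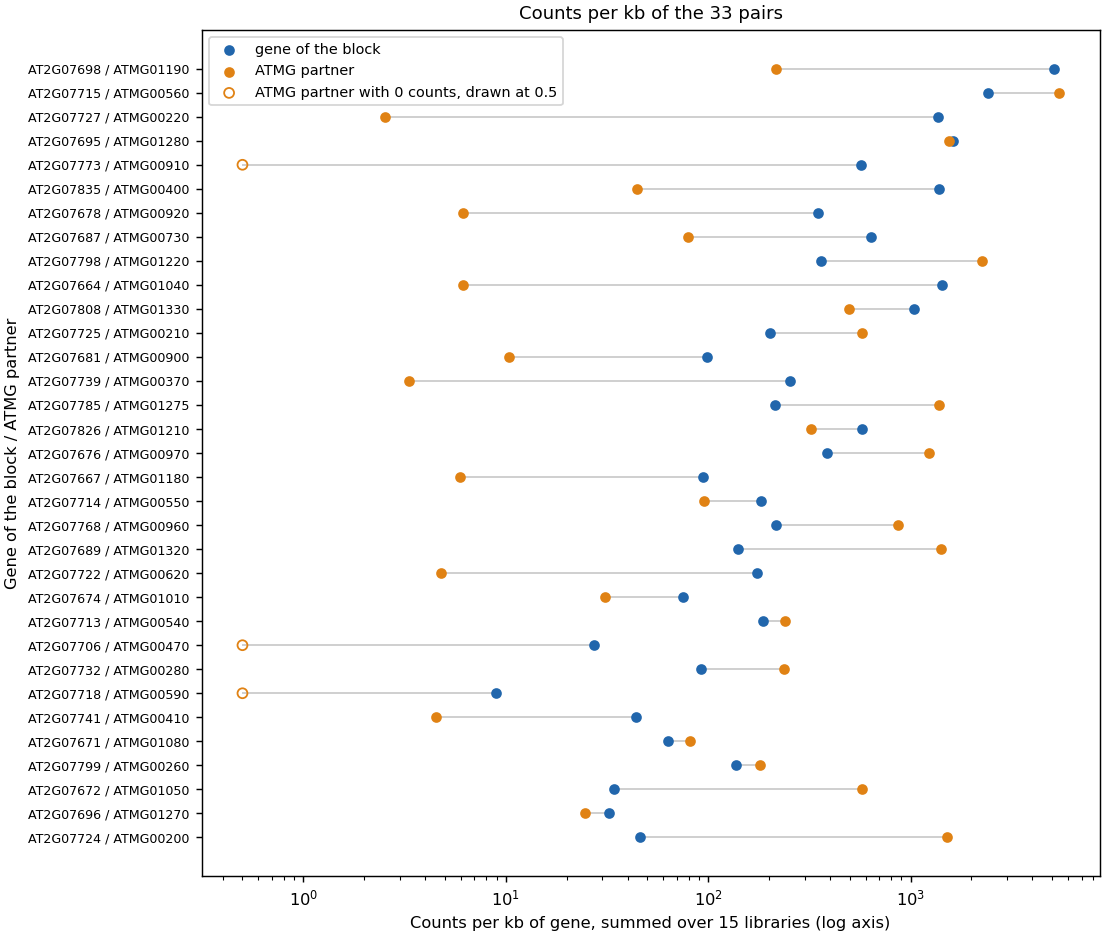
Counts per kb of gene, summed over the 15 libraries (log axis), for the 33 members with an annotated ATMG partner (rows), ordered by the member's counts. Blue points are the genes of the block and orange points their partners, open where the partner had 0 counts. AT2G07698 and AT2G07727 lie far to the right of their partners, and AT2G07715 lies to the left of ATMG00560.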

How the data were processed

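Each library's file held raw counts, deposited by the authors as whole numbers for 37361 genes with their lengths, per the file headers. STAR 2.7.3a, featureCounts 2.0.0 and DESeq2 appear in the submitters' processing notes with no role stated. Genome build, strand setting and the handling of reads with several positions are not given there. Deposited lengths equalled TAIR10.1 RefSeq exon lengths for 74 of 76 members, and coordinates, products and sequences come from that assembly.

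The 15 libraries were fitted together by group in edgeR 4.0.16 (TMM, filterByExpr, robust quasi-likelihood F test), run in R 4.3.3. A called gene had a Benjamini-Hochberg adjusted p under 0.05 over 21456 genes and a fold of at least 2. The fit was tested on simulated data. Exons were aligned with blastn 2.17.0, and an exact two-sided permutation test was used on shares. ATMG partners came from notes in the annotation and not from the planned sequence match, because ATMG genes have no coordinates in this assembly. Replicates differed by more than sampling noise (chi-square per degree of freedom 3.83 to 15.7). Alternatives were library totals, DESeq2 size factors, DESeq2 1.42.0, no filter, the compared groups alone, aligned members only, a replicate block and leaving out each library. The ratio without the 3 most abundant ATMG genes was chosen after seeing the data.

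Replicate numbers pair the samples, since for 30 of 30 pairs with the same number the deviations from group means had correlations over 0.1 (0.183 to 0.748) across 10920 genes. The main fit and the permutation test did not use this pairing, and only the replicate block did. The members and lists were chosen with earlier results of these data known. Named genes are the 12 most abundant members, for each comparison up to 3 called members at either end of the log2 fold changes at a mean of at least 1 CPM, ATMG partners of these, and members annotated outside the block. Counting intervals and floors cover counting error only.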

Additional observations from a re-analysis of the deposited data

How the results depend on the processing

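With library totals, 12 members were called higher and 15 lower in mock SPAAC against mock mRNA, and 7 higher in mock CuAAC against mock mRNA. The compared groups alone left fewer members to test. Of 31 tested then in mock CuAAC against mock mRNA, 19 were called lower. Of 34 tested then in mock SPAAC against mock CuAAC, 7 were called higher. The count called lower in m7G-depleted SPAAC against m7G-depleted CuAAC, 0 as reported, was 1 with the replicate block and 2 with DESeq2. Without the 20 most abundant genes the members' share was 0.0471% in mock mRNA, 0.0264% and 0.109% in mock and m7G-depleted SPAAC, and 0.0185% and 0.0797% in mock and m7G-depleted CuAAC. The causes were not tested.

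Leaving out 1 library gave 2 to 3 members higher and 22 to 27 lower in mock SPAAC against mock mRNA, 3 to 4 and 34 to 37 in mock CuAAC against mock mRNA, and 10 to 12 and 0 to 0 in mock SPAAC against mock CuAAC. It gave 51 to 56 higher with m7G depletion in SPAAC, 45 to 50 in CuAAC, and 12 to 22 higher and 0 to 1 lower in m7G-depleted SPAAC against m7G-depleted CuAAC. The replicate block, which uses the pairing of the samples, gave 56 members higher with depletion in SPAAC and 52 in CuAAC. Among named genes it changed no call beyond those given for AT2G07669, AT2G07674 and AT2G07785. For the block and for the fits without 1 library, the share of all tested genes called was not computed. These counts therefore describe the members only. Of the named genes' fold changes under the alternatives, 1774 kept their side of the threshold, 37 lost the call and 21 gained one. Of the 1774, 26 had the opposite sign and were called in neither fit, 6 of them with library totals, and 0 called values changed sign. Depth limits the rarer members, and 15 were not tested; 3 libraries a group limit every test.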
